A study of Rattus norvegicus with 12 samples.

Results

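Cytochrome P450 genes were examined in the whole lung of Sprague-Dawley rat pups whose growth had been restricted in the womb (IUGR, intrauterine growth restriction, produced by a low protein diet) and in control pups, at postnatal days 4, 10 and 21. RNA of 14 IUGR and 15 control lungs was pooled from 2 or 3 pups before it was labelled for 12 one-colour Cy3 arrays, so every diet had 2 arrays per day. Members were all features with an NM accession whose matched rat symbol begins with Cyp and a digit. That rule found 56 features; 2 of them were left out by the rule, and the 54 others, 1 feature per gene, stood among 26208 features in all and 10097 with an NM accession. The protein content of the diets, the litters behind each pool and the sex of the pups are not given in the sources used here. P-values therefore measure the spread between pools, which may share litters.

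P450 enzymes are haem proteins that insert an oxygen atom into a substrate. Those of the endoplasmic reticulum take electrons from the reductase Por, and those of mitochondria from the ferredoxin Fdx1. The low-numbered families oxidise drugs, solvents, inhaled toxicants and fatty acids, while the other families make or destroy steroids, bile acids, vitamin D and retinoic acid. In lung, P450 activity is known chiefly from club cells and alveolar type 2 cells, and retinoic acid breakdown by the Cyp26 enzymes bears on the formation of alveoli.

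The 8 day 4 and day 10 arrays had median intensities of 411.2 to 418.4, and the 3 day 21 arrays used here 270.1 to 278.5. The lowest intensity was 113 to 122 on the 8 arrays and 5.65 to 6.02 on those 3, so dim probes have a floor at days 4 and 10 that day 21 lacks, and age and processing cannot be told apart at day 21. Over the NM features, the correlation of control day 21 replicate 2 with the averaged days 4 and 10 was 0.0900, against 0.946 to 0.948 for the other day 21 arrays, and that array was left out. At days 4 and 10, IUGR day 4 replicate 2 and IUGR day 10 replicate 2 stood apart in the levels of heart and brown fat markers. The heart list (5 of 7 genes measured) averaged 13.42 and 12.42 on them against 9.90 to 12.12 on the other 6 arrays, and the brown fat list (6 of 8) 10.43 and 10.77 against 8.12 to 9.45. Lung markers were high on all 8 arrays: the alveolar type 2 list (6 of 7) averaged 12.68 to 13.26 and Scgb1a1, the main club cell secretory protein, was 15.09 to 15.32.

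Most P450 genes were dim. After subtraction of each array's median log2 intensity, 5 of 54 members (9.26%) averaged at least 1 above it over the 8 arrays of days 4 and 10, 6 lay from 0 to 1 above it and 43 (79.6%) lay below it. Among all NM features these shares were 39.2%, 13.8% and 47%. Cyp2e1, at 1.05, lay just inside the upper limit, and the next gene in order, Cyp4f4, was at 0.55. Cyp2j4 (0.01) and Cyp2j3 (-0.18) lay on either side of the median. Intensity depends on the probe as well as on the transcript, so this order ranks signals and not transcripts.

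**Figure D1:**
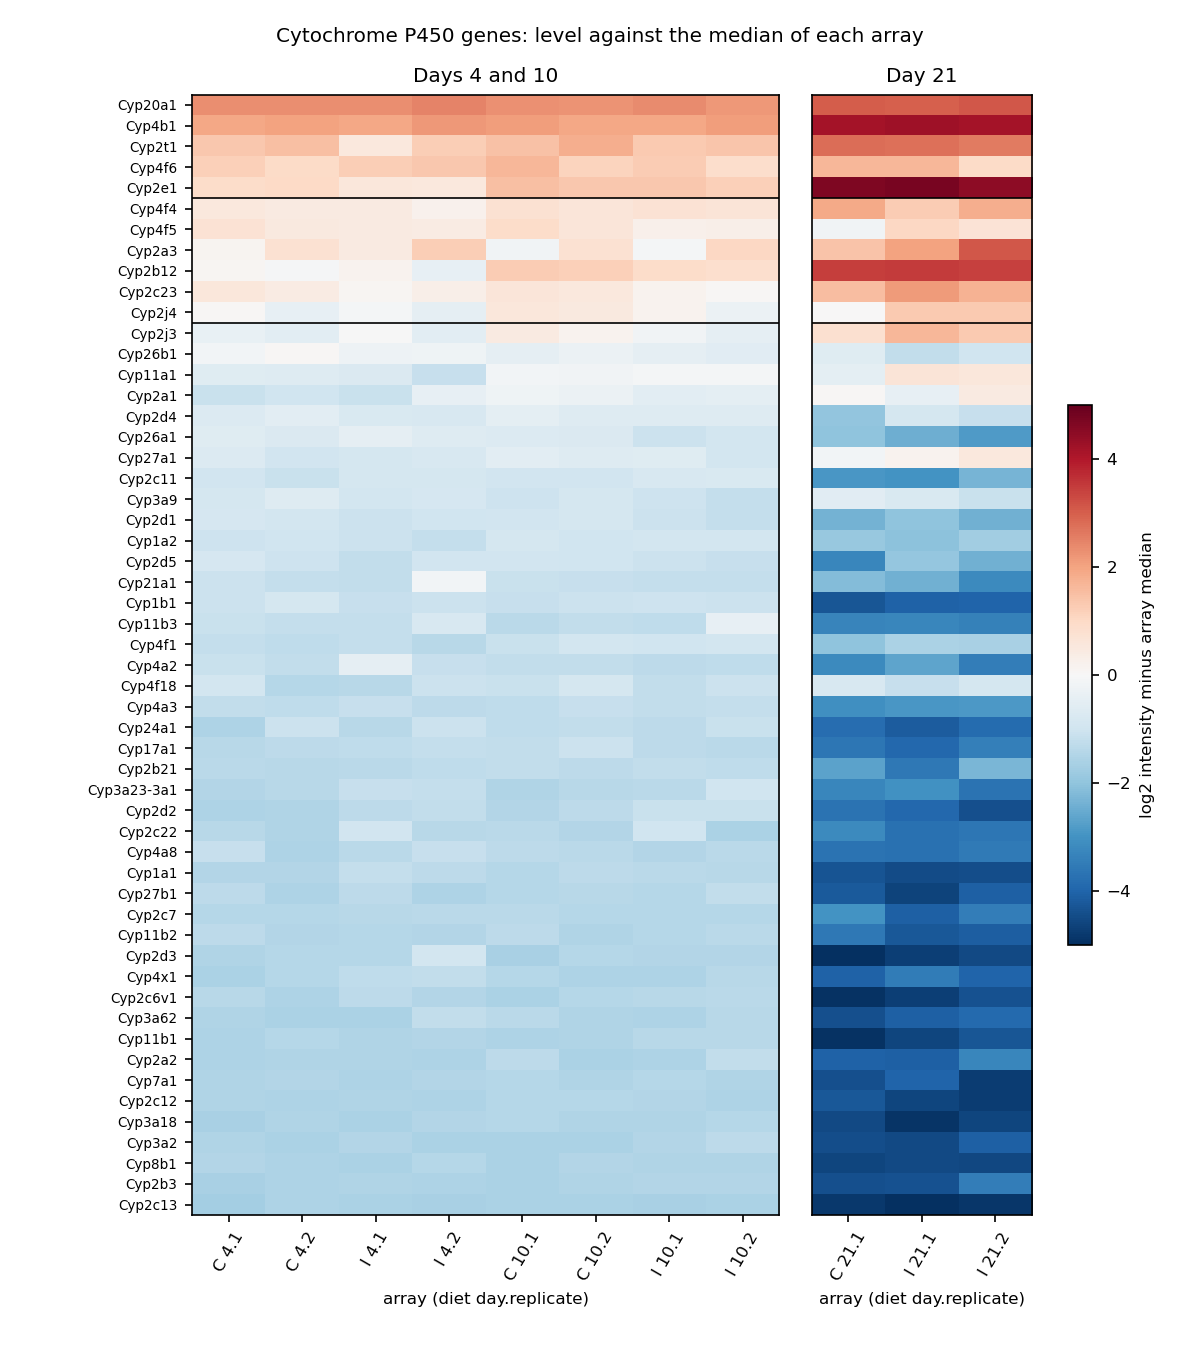
Log2 intensity minus the array's median (colour) for the 54 P450 genes (rows, ordered by their mean over the 8 arrays of days 4 and 10) on each array (columns, C for control and I for IUGR, with day and replicate). Black lines part the 5 genes well above the median, the 6 around it and the 43 below it; at day 21 the dim genes reach lower values, on a scale whose lowest intensity is 5.65 to 6.02.

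The 5 genes well above the median were Cyp20a1, an enzyme without a known substrate, Cyp4b1, a lung-rich enzyme that hydroxylates fatty acids and activates the pneumotoxin ipomeanol, Cyp2t1, Cyp4f6 and Cyp2e1. Cyp20a1 had log2 intensities of 11.03 and 11.02 in the control pools and 11.04 and 11.17 in the IUGR pools of day 4, and of 10.97 and 10.93 against 11.04 and 10.87 at day 10. Cyp4b1 had 10.65 and 10.71 in controls against 10.64 and 10.85 in IUGR at day 4, then 10.79 and 10.64 against 10.63 and 10.79 at day 10. Control and IUGR pools overlapped except for Cyp20a1 at day 4, where both IUGR pools were just above, and the 8 values spanned 0.30 for Cyp20a1 and 0.22 for Cyp4b1. Cyp4f6, of the subfamily that hydroxylates leukotriene B4 and other fatty acids, was 9.92 and 9.66 in controls and 9.92 and 10.05 in IUGR at day 4, then 10.37 and 9.81 against 9.95 and 9.58. Its replicates at day 10 lay farther apart than the means of its groups. Cyp2t1 was 10.06 and 10.20 in controls against 9.24 and 9.90 in IUGR at day 4, then 10.17 and 10.49 against 10.01 and 10.07 at day 10.

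The 6 genes around the median were Cyp4f4 and Cyp4f5 of the leukotriene-hydroxylating subfamily, Cyp2a3 of rat nose and lung, and the arachidonic acid epoxygenases Cyp2b12, known from rat skin, Cyp2c23, known from rat kidney, and Cyp2j4. Over the 8 arrays their single values ran from 8.22 to 9.98. Family 2 supplied 2 genes well above, 4 around and 16 below the median, and family 4 supplied 2, 2 and 6. Every member of families 1, 3, 7, 8, 11, 17, 21, 24, 26 and 27 lay below it. Those 43 genes ran from 6.99 to 9.15 in single arrays, and their median SD over the 8 arrays was 0.12, against 0.24 for the 5 bright genes and 0.31 for the 6 in between. Cyp1a1, the enzyme induced through the aryl hydrocarbon receptor, was 7.25 to 7.52, near the floor, on all 8 arrays. Of the liver marker list (8 of 8 genes measured), 7 genes lay below the median, and its mean was 8.0 to 8.2 on the 8 arrays.

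Neighbouring genes differed in signal in some groups and not in others. Among members at most 10 genes apart in the GRCr8 gene order, the chromosome 1 group of Cyp2b3, Cyp2b21, Cyp2b12, Cyp2a3, Cyp2a1, Cyp2a2 and Cyp2t1 ran from 1.32 above the median to 1.53 below it. On chromosome 5 the group of Cyp4x1, Cyp4a8, Cyp4a2, Cyp4a3 and Cyp4b1 held values from 2.02 above to 1.42 below. By contrast, all 5 neighbours of the Cyp2c group on chromosome 1 and all 5 of the Cyp2d group on chromosome 7 were below the median. Sequences of the array's probes are not used here, and probes of near-identical copies (Cyp2b, Cyp2a1 and Cyp2a2, Cyp2j3 and Cyp2j4, Cyp4a2 and Cyp4a3, Cyp11b) may read each other's transcripts, so the values of those genes are uncertain as to the copy.

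The comparison of day 10 with day 4 asked how P450 expression moved while alveoli form. Averaged over both diets, 6 of 54 P450 genes (11.1%) were higher and 1 (1.85%) was lower at day 10 (limma, adjusted p under 0.05), where over all 26208 features 10.3% were higher and 11.3% lower. The share of members that rose was close to the background and the share that fell was below it. Neither difference was tested. The background was not matched for intensity: 79.6% of members lay below the array median, against 47% of all NM features. The closeness of the shares of rising genes therefore does not show whether P450 genes rose as often as equally dim genes, which was not tested. The median difference was 0.03 over the members and -0.02 over all features. Cyp2b12, Cyp2e1, Cyp11a1, Cyp2a1, Cyp4f4 and Cyp4f1 rose, and Cyp26b1 fell.

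Cyp2e1, which oxidises ethanol, acetone and small solvents and is best known from liver, had log2 intensities of 9.63 and 9.71 in controls and 9.28 and 9.20 in IUGR at day 4. At day 10 it had 10.20 and 10.06 in controls and 10.04 and 9.88 in IUGR. Every pool of day 10 lay above every pool of day 4, and the rise averaged 0.59 ± 0.07 (SE, 4 pools a day, 1.5-fold, limma adjusted p = 0.00178). It passed within controls (0.46 ± 0.10, adjusted p = 0.0428) and within IUGR (0.71 ± 0.10, adjusted p = 0.00613). The call within controls held in 6 of 14 alternatives and was lost, with adjusted p up to 0.263, with an intensity trend, with a replicate block and without any single control array or IUGR array of day 10. The difference between both rises (0.26 ± 0.14) did not pass (adjusted p = 0.726).

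Cyp2b12 was 8.82 and 8.66 in controls and 8.88 and 8.26 in IUGR at day 4, then 9.98 and 9.87 against 9.61 and 9.52 at day 10. No pool of day 4 reached the lowest of day 10. The rise averaged 1.09 ± 0.13 (2.13-fold, adjusted p = 0.00201), 1.19 ± 0.18 in controls (adjusted p = 0.0202) and 0.99 ± 0.18 in IUGR (adjusted p = 0.0158). The averaged rises of Cyp2e1 and Cyp2b12 passed in 14 of 14 alternatives, as did that of Cyp11a1. Within controls, Cyp2b12 lost its call without any 1 of the 4 control arrays (adjusted p up to 0.151), and within IUGR without either IUGR array of day 10 (up to 0.0984).

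Cyp11a1, the mitochondrial enzyme that cuts the side chain of cholesterol at the start of steroid synthesis, was 8.11 and 8.05 in controls and 7.97 and 7.51 in IUGR at day 4. All 4 pools of day 10 lay between 8.52 and 8.60. The rise was 0.65 ± 0.10 on average (adjusted p = 0.00454), 0.85 ± 0.14 in IUGR (adjusted p = 0.0109) and 0.45 ± 0.14 in controls, which missed the threshold (adjusted p = 0.110). The IUGR call was lost without IUGR day 10 replicate 1 (adjusted p = 0.0728). Of the adrenal list, chosen after these values were seen (5 of 8 genes measured), the cholesterol carrier Star rose by 0.24 ± 0.07 (adjusted p = 0.0451) and Chga fell by 0.21 (adjusted p = 0.0342).

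The start regions of these 3 genes, which had the smallest p of the age comparison, are shown with those of the retinoic acid hydroxylases Cyp26a1 and Cyp26b1. Each runs from 250 bases before to 50 after the start site in the RefSeq annotation of GRCr8, 5′ to 3′ on the gene's own strand, and 44 of the 54 members had such an entry. Capitals mark matches to AGGTCA (a nuclear receptor half-site), TTGCNNAA (a C/EBP motif), TATAAA and the direct repeat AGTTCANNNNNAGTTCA (a form bound by retinoic acid receptors), searched on both strands.
Cyp2e1, chr1:205269717-205270016, plus strand: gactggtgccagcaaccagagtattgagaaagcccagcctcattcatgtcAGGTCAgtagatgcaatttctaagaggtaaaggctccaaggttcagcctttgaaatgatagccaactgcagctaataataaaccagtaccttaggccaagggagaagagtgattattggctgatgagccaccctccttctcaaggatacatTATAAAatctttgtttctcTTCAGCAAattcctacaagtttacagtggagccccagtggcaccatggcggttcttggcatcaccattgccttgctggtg
Cyp2b12, chr1:91135044-91135343, plus strand: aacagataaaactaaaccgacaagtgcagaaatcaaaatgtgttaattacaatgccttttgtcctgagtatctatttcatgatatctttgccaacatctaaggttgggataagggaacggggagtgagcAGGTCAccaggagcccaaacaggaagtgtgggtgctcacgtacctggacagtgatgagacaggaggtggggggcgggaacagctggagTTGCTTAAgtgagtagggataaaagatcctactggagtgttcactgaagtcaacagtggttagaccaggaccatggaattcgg
Cyp11a1, chr8:67318415-67318714, plus strand: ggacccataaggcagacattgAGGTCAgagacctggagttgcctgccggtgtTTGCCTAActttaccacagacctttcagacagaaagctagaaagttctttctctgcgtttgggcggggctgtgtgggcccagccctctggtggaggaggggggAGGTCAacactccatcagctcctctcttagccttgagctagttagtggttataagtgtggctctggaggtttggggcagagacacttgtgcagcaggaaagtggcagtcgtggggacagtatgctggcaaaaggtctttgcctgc
Cyp26a1, chr1:244883572-244883871, plus strand: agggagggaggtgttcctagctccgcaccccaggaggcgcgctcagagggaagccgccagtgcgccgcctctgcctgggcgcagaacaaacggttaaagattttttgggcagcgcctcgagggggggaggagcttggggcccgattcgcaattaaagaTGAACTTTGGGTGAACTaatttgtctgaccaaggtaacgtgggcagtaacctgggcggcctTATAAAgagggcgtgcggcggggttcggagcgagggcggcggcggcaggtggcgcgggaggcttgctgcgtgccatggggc
Cyp26b1, chr4:118616127-118616426, minus strand: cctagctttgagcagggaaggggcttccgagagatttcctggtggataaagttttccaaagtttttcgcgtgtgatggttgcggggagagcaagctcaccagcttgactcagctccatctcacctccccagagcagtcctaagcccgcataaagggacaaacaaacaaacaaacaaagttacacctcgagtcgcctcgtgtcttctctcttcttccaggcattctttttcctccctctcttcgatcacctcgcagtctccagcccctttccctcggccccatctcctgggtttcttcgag
AGGTCA was found in 14 of the 44 member regions (31.8%), among them Cyp2e1, Cyp2b12 and Cyp11a1, against 15.7% of all 27457 regions. TTGCNNAA was found in 25% of the members and 10.5% of all regions, including the same 3 genes, where the printed strand reads TTCAGCAA in Cyp2e1 (the motif itself being on the other strand), TTGCTTAA in Cyp2b12 and TTGCCTAA in Cyp11a1. TATAAA was found in 36.4% and 14.3%, and the aryl hydrocarbon receptor core GCGTG, which is not put in capitals, in 20.5% and 30.9%. The direct repeat was in only 3 of all 27457 regions (0.0109%), 1 of them Cyp26a1, where it lies on the other strand and the printed strand reads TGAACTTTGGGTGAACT, its first base 92 bases before the start site. Repeats of other half-sites, such as AGGTCA, were not searched for. The share of 0.0109% therefore belongs to that exact spelling and does not set Cyp26a1 apart from genes with other forms. The region of Cyp26b1 held none of the motifs in capitals. No match overlapped another within these 5 regions, and a match describes letters only.

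Cyp26b1 and Cyp26a1 inactivate retinoic acid. Cyp26b1 was 8.56 and 8.76 in controls and 8.43 and 8.47 in IUGR at day 4, then 8.24 and 8.39 against 8.24 and 8.14 at day 10. All pools of day 10 lay below all pools of day 4. It was the member that fell, by 0.30 ± 0.07 on average (adjusted p = 0.0219), with -0.35 ± 0.10 in controls (adjusted p = 0.0982) and -0.26 ± 0.10 in IUGR (adjusted p = 0.132). Cyp26a1 was 8.11 and 7.98 in controls and 8.26 and 8.03 in IUGR at day 4, then 8.02 and 7.96 against 7.60 and 7.77. Within IUGR, where the pools of both days did not overlap, it fell by 0.46 ± 0.11 (adjusted p = 0.0357); the control difference was -0.05 ± 0.11 (adjusted p = 0.860) and the average -0.25 ± 0.08 (adjusted p = 0.0539). The difference between diets in this change was -0.41 ± 0.16 and did not pass (adjusted p = 0.639).

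The fall of Cyp26b1 passed in 9 of 14 alternatives (adjusted p up to 0.0906) and was lost without control day 4 replicate 2, IUGR day 10 replicate 2 or either control array of day 10, and without both IUGR arrays rich in heart and brown fat markers. That of Cyp26a1 within IUGR passed in 6 of 14 (up to 0.181), and was lost with a replicate block and without any single array other than IUGR day 4 replicate 2.

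Cyp2a1, a testosterone hydroxylase of rat liver, was 7.61 and 7.72 in controls at day 4 and 8.49 and 8.39 at day 10. In IUGR it was 7.59 and 8.29 at day 4 and 8.18 and 8.21 at day 10, so the IUGR groups overlapped through replicate 2 of day 4. The average rise was 0.51 ± 0.14 (adjusted p = 0.0356), with 0.77 ± 0.20 in controls (adjusted p = 0.0712) and 0.25 ± 0.20 in IUGR (adjusted p = 0.438). Liver albumin rose as well, by 0.65 ± 0.05 (adjusted p = 6.76e-04), from 7.93 and 7.95 to 8.17 and 8.14 in controls and from 7.56 and 7.58 to 8.64 and 8.67 in IUGR. Among the 8 liver markers, 1 rose, 1 (Tf) fell and 6 did not pass, and their part in the P450 values was not tested.

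Cyp4f4 was 9.23 and 9.17 in controls and 9.13 and 8.90 in IUGR at day 4, against 9.44 and 9.30 and 9.43 and 9.34 at day 10. Cyp4f1 was 7.52 and 7.44 in controls and 7.50 and 7.31 in IUGR, against 7.59 and 7.76 and 7.68 and 7.78. For each gene every pool of day 10 lay above every pool of day 4, by averages of 0.27 ± 0.07 (adjusted p = 0.0372) and 0.26 ± 0.07 (adjusted p = 0.0377). Of the averaged calls, that of Cyp4f4 passed in 5 of 14 alternatives (adjusted p up to 0.135), that of Cyp4f1 in 4 of 13 (up to 0.141) and that of Cyp2a1 in 8 of 14 (up to 0.115). Cyp4f4 and Cyp4f1 lost the call without any single array other than IUGR day 4 replicate 1, and Cyp2a1 without any single control array or IUGR array of day 10.

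**Figure D2:**
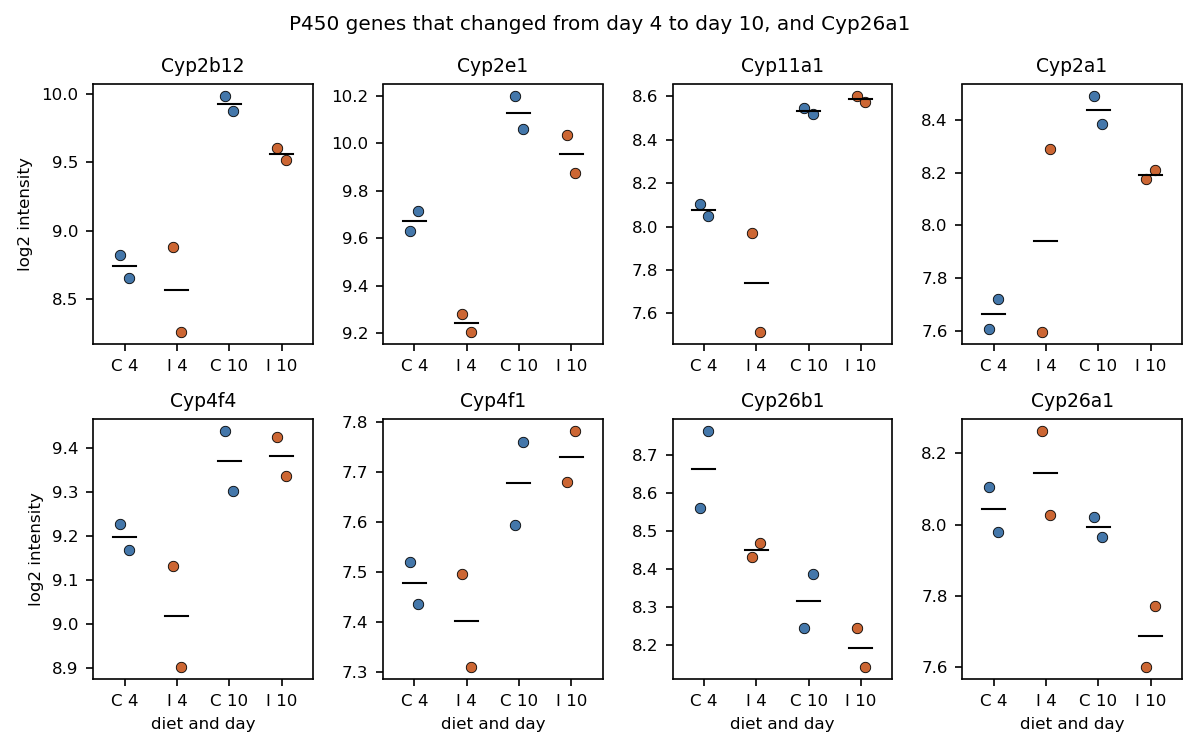
Log2 intensity (y axis, its own range in each panel) of the 7 P450 genes past the threshold from day 4 to day 10 averaged over both diets, and of Cyp26a1, in control (C, blue) and IUGR (I, orange) pools. Points are arrays and black lines are means of 2 arrays; Cyp2b12, Cyp2e1 and Cyp11a1 are higher in all 4 pools of day 10, and Cyp26b1 is lower in all 4.

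Of the epoxygenase pair Cyp2j4 and Cyp2j3, which neighbour each other on chromosome 5, the control pools of day 10 lay above those of day 4, and the IUGR pools of both days overlapped. Cyp2j4 was 8.77 and 8.28 in controls at day 4 and 9.26 and 9.19 at day 10, and 8.62 and 8.22 against 8.88 and 8.40 in IUGR. Cyp2j3 was 8.35 and 8.19 against 9.15 and 8.88 in controls, and 8.68 and 8.15 against 8.50 and 8.25 in IUGR. The control differences were 0.70 ± 0.22 (adjusted p = 0.111) and 0.75 ± 0.18 (adjusted p = 0.0659), neither past the threshold, but both passed without the 2 IUGR arrays rich in heart and brown fat markers (adjusted p = 0.0434 and 0.0164). The diet difference in this change was -0.78 ± 0.26 for Cyp2j3 (adjusted p = 0.591) and -0.48 ± 0.30 for Cyp2j4 (adjusted p = 0.783).

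Within controls 2 members passed, against 4.28% of all features, and within IUGR 4 did, against 13% of all features. Cyp4a2, a fatty acid hydroxylase, differed within IUGR by a similar size without passing (-0.49 ± 0.20, adjusted p = 0.142). Its level was 8.24 on IUGR day 4 replicate 1 and 7.37 to 7.58 on the other 7 arrays. Cyp3a9, of the steroid- and drug-oxidising Cyp3a subfamily, differed by -0.24 ± 0.08 on average (adjusted p = 0.0600).

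The P450 reductase was among the genes that fell. Of 9 measured electron donors and haem enzymes, 5 fell from day 4 to day 10 and none rose (background as above). Por, the electron donor of all microsomal P450 enzymes, was 12.62 and 12.54 in controls and 12.54 and 12.55 in IUGR at day 4, then 12.45 and 12.48 against 12.20 and 12.27 at day 10. It fell by 0.21 ± 0.06 (adjusted p = 0.0314), with no overlap between days. Cytochrome b5 (Cyb5a) fell by 0.35 ± 0.05 (adjusted p = 0.00485) and Fdx1, the electron donor of Cyp11a1, by 0.23 ± 0.06 (adjusted p = 0.0404).

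Other oxidation and conjugation genes also differed by age, against the same background of 10.3% higher and 11.3% lower. Of 16 xenobiotic and nuclear receptor genes, the bile acid receptor Nr1h4 (0.64 ± 0.15, adjusted p = 0.0215) and Arnt, the partner of the aryl hydrocarbon receptor (0.22 ± 0.06, adjusted p = 0.0469), rose. Among 4 further targets of that receptor, the quinone reductase Nqo1 fell by 0.41 (adjusted p = 0.00806) and Ugt1a6 by 0.30 (adjusted p = 0.0239). Ephx2, which hydrolyses the products of the epoxygenases, rose by 0.44 ± 0.12 (adjusted p = 0.0348), 1 of 7 in its list. Of 20 conjugation enzymes, Gstm3 rose (0.51 ± 0.09, adjusted p = 0.00667) and 4 fell, including Mgst1 by 0.49, Sult1a1 by 0.48 and Ugt1a6, which is on both this list and that of the receptor's targets. Over the same interval 4 of the 6 alveolar type 2 markers fell, the largest by 0.63 (Napsa), and the club cell marker Scgb3a2 fell by 0.39 (adjusted p = 0.0140). In whole lung, fewer cells of a type and less RNA per cell cannot be told apart, and the part of these shifts in the P450 values was not tested.

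The genes whose pattern over the 8 arrays was most like that of Cyp2e1, the member with the smallest p, were Specc1l (Pearson r = 0.993), Opcml (r = 0.979) and Zeb2 (r = 0.979), out of the NM features with 1 symbol. The 8 arrays share their age groups, and these values are a description.

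IUGR and control lungs were compared within each day to ask whether growth restriction altered P450 expression. No P450 gene passed the adjusted threshold at day 4 or day 10, averaged over both days, or in the difference between days (limma), where 0% of all features passed either. At an unadjusted p under 0.05 the members numbered 6 at day 4 (11.1%, against 9.59% of all features), 7 at day 10 (13%, against 7.99%), 9 in the average (16.7%, against 10.3%) and 2 in the difference between days (3.7%, against 7.38%). At day 10, 18 of the 54 members (33.3%) had both IUGR pools below both control pools, where 23.6% of all features did, and 8 (14.8%) had both above, where 19.9% did. At day 4 those counts were 11 (20.4%, against 19.1%) and 10 (18.5%, against 18.3%). None of these shares was tested against that of all features, and the background was again not matched for intensity. The members' median difference was 0.02 at day 4 and -0.01 at day 10.

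The bright genes with the smallest p were lower in IUGR. Cyp2e1, listed above, was lower in both IUGR pools than in both control pools at each day, by 0.43 ± 0.10 at day 4 (adjusted p = 0.341) and by 0.17 ± 0.10 at day 10 (adjusted p = 0.708). The day 4 difference had adjusted p-values of 0.0868 to 0.772 over 15 alternatives. For Cyp2t1 the differences were -0.56 ± 0.20 (adjusted p = 0.451) and -0.29 ± 0.20 (adjusted p = 0.787). Both IUGR pools lay below both control pools at each day, but the day 4 value was -0.24 without IUGR day 4 replicate 1, its lowest array, and -0.89 without replicate 2.

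Cyp2c23 had the smallest p of the averaged comparison. It was 9.29 and 9.10 in controls and 8.78 and 8.97 in IUGR at day 4, then 9.29 and 9.21 against 8.87 and 8.74 at day 10. IUGR pools lay below control pools at both days without overlap, by 0.31 ± 0.11 and 0.45 ± 0.11, and on average by 0.38 ± 0.08 (adjusted p = 0.349, 0.0926 to 0.792 over 14 alternatives). Cyp4f5 was 9.42 and 9.21 in controls and 9.15 and 9.09 in IUGR at day 4, then 9.61 and 9.29 against 8.96 and 8.97 at day 10. It too lay lower in both IUGR pools at each day, with differences of -0.19 ± 0.12 and -0.49 ± 0.12 (adjusted p = 0.641 and 0.441).

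Cyp2d2, a drug-oxidising enzyme of rat liver, lay the other way. It was 7.17 and 7.20 in controls and 7.41 and 7.45 in IUGR at day 4, then 7.21 and 7.38 against 7.58 and 7.57 at day 10, with differences of 0.25 ± 0.09 and 0.27 ± 0.09 (adjusted p = 0.443 and 0.506). All 8 values were over 1 log2 unit under the median, near the floor. The other higher genes with an unadjusted p under 0.05 were also below the median: Cyp4x1 at day 4 (0.25 ± 0.09, adjusted p = 0.464), and in the average Cyp3a23-3a1 (0.25 ± 0.09, adjusted p = 0.418) and Cyp2c11, a major enzyme of adult male rat liver (0.17 ± 0.06, adjusted p = 0.441). Genes below the median were among the lower ones too. In the average these included Cyp2d1 (-0.20 ± 0.06, limma adjusted p = 0.410) and Cyp26b1 (-0.17 ± 0.07, adjusted p = 0.479). At day 4 Cyp11a1 was another (-0.34 ± 0.14, adjusted p = 0.499).

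At day 10 Cyp2j3 was 0.64 ± 0.18 lower in IUGR (adjusted p = 0.469) and Cyp2j4 0.59 ± 0.22 lower (adjusted p = 0.571), both without overlap. Cyp26a1 was 0.31 ± 0.11 lower (adjusted p = 0.569). Its IUGR pools too lay below both control pools. No gene of the electron donor, receptor, aryl hydrocarbon receptor target, epoxide hydrolase or conjugation lists passed between diets at day 4, at day 10 or in the average either.

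**Figure D3:**
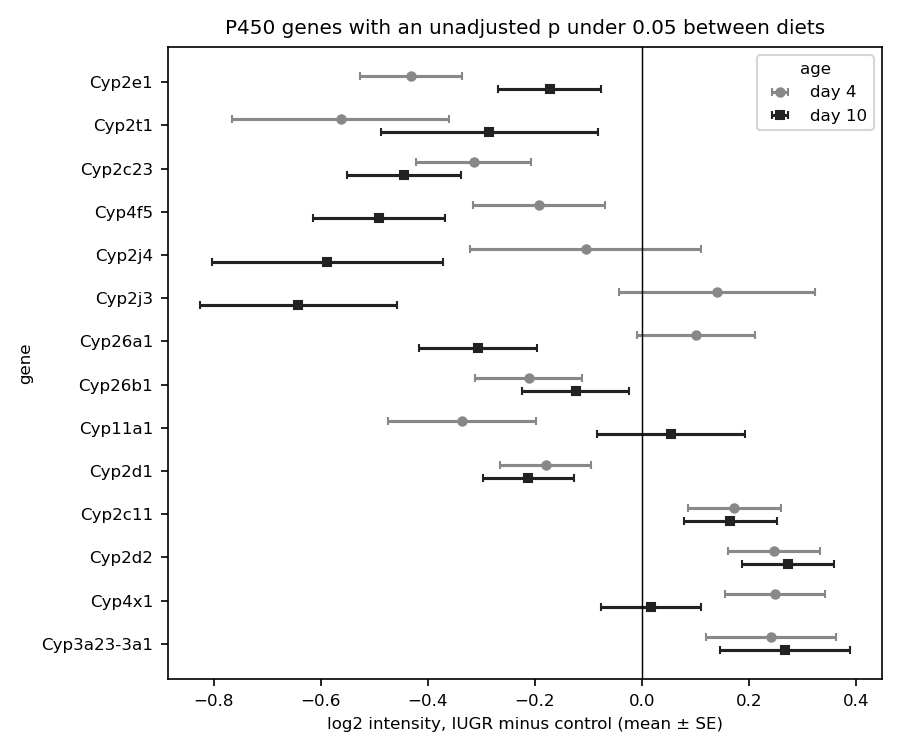
Difference in log2 intensity between IUGR and control pools (x axis, mean ± SE from the fit of 8 arrays) at day 4 (grey circles) and day 10 (black squares) for the 14 P450 genes with an unadjusted p under 0.05 at day 4, at day 10 or in the average. No difference passed after adjustment. Cyp2e1, Cyp2t1, Cyp2c23, Cyp4f5, Cyp2d1, Cyp26b1 and Cyp2j4 lie below 0 at both days. Cyp2d2, Cyp3a23-3a1, Cyp2c11 and Cyp4x1 lie above 0 at both, Cyp4x1 only just at day 10. Cyp11a1, Cyp26a1 and Cyp2j3 lie on opposite sides of 0 at the different days.

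Single arrays decided the diet calls that appeared when 1 array was left out. Cyp21a1, the steroid hydroxylase of the adrenal cortex, was 8.54 on IUGR day 4 replicate 2 and 7.46 to 7.62 on the other 7 arrays. Cyp11b3, a corticoid hydroxylase of the rat adrenal, was 7.89 on that array, 8.26 on IUGR day 10 replicate 2 and 7.33 to 7.61 on the other 6. Both arrays are those high in heart and brown fat markers, and the adrenal list averaged 8.17 and 8.22 on them against 7.89 to 8.02 on the other 6. Dbh, the enzyme that makes noradrenaline, was 8.57 and 8.48 there and at most 8.01 elsewhere. Th was 7.72 and 7.87 on those 2 arrays and Chga 8.01 and 7.81, each the highest of its day by a small margin. Star, Hsd3b1 and Cyp21a1 followed on 1 of the 2 arrays only. On IUGR day 4 replicate 2 Star was 8.90, the highest of the 4 day 4 arrays. On IUGR day 10 replicate 2 it was 8.77, the lowest of the 4 day 10 arrays. Hsd3b1 was 7.64 on IUGR day 4 replicate 2, within its range elsewhere. It was 8.18 on IUGR day 10 replicate 2, against at most 7.81 elsewhere. Cyp21a1 was 7.50 on IUGR day 10 replicate 2. These genes were picked after their values were seen, and the part of other tissues in these values was not tested. Without IUGR day 4 replicate 1, replicate 2 alone stood for its group. The genes then called at day 4 were Cyp21a1 (0.98), Cyp2a1 (0.63) and Cyp11a1 (-0.57). That replicate 2 was the highest of the 4 day 4 arrays for Cyp21a1 and Cyp2a1, and the lowest for Cyp11a1. Without IUGR day 4 replicate 2, Cyp4a2 passed (0.72, adjusted p = 0.0432).

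Cyp2a3, which activates a tobacco nitrosamine, differed more between replicates than between diets. It was 8.86 and 9.45 in controls and 9.17 and 9.93 in IUGR at day 4, then 8.51 and 9.46 against 8.59 and 9.72 at day 10. In all 4 groups the array with replicate number 2 was the higher one, by 0.59 to 1.13, whereas the diet differences were 0.40 ± 0.45 and 0.17 ± 0.45. Of the 4 club genes measured, Scgb3a1 and Bpifa1, picked after their values were seen, were split the same way and the other 2 were not. Scgb3a1 was 11.82 and 12.35 in controls and 12.86 and 14.19 in IUGR at day 4, then 8.56 and 11.66 against 9.91 and 12.09 at day 10. Bpifa1 was 7.66 and 7.97, 8.09 and 10.62, 7.32 and 8.67, and 7.52 and 8.52 in the same order. The club list (4 of 5 genes measured) averaged 11.12 to 12.62 on the arrays numbered 1 and 12.26 to 13.52 on those numbered 2, while Scgb1a1 varied little and Scgb3a2 was lower on replicate 2 in both groups of day 4 (14.03 against 14.21 in IUGR, 13.79 against 13.97 in controls). The part of airway content in the Cyp2a3 values was not tested.

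**Figure D4:**
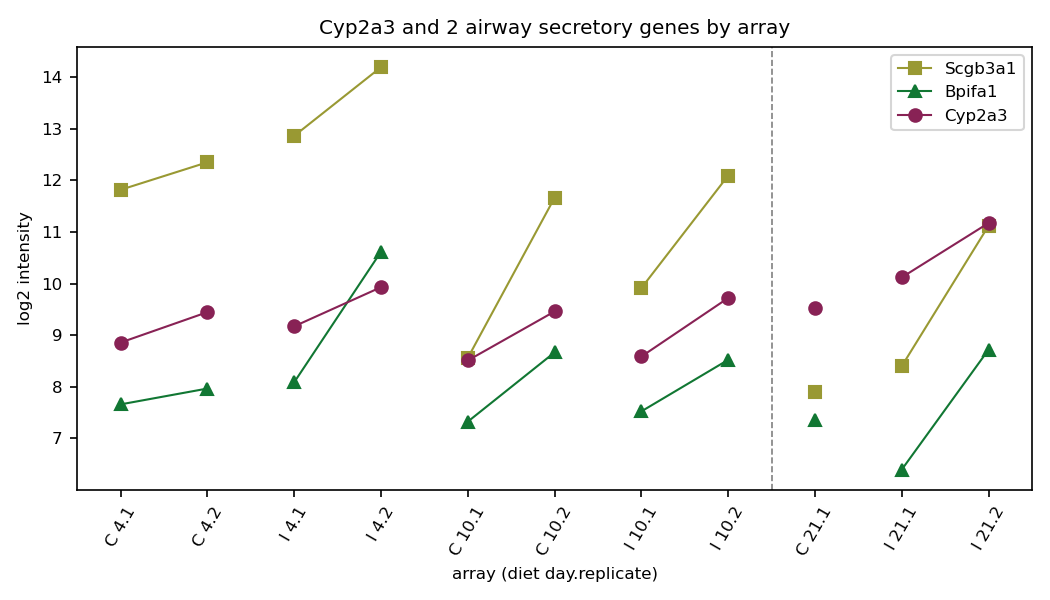
Log2 intensity (y axis) of Cyp2a3 and of the airway genes Scgb3a1 and Bpifa1 on each array (x axis, C for control and I for IUGR, with day and replicate); lines join the 2 arrays of a group and the dashed line parts day 21, which was processed apart. In every group with 2 arrays, all 3 genes are higher on the array numbered 2.

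At day 21 the 2 IUGR arrays were compared with 1 control array over the NM features, so the spread came from the IUGR pools and the control's own spread is unknown. The brown fat list averaged 10.08 on the control array and 6.72 and 7.31 on the IUGR arrays, the heart list 11.22 against 10.13 and 13.10, and the part of these tissues in the values below was not tested. No P450 gene passed the adjusted threshold, and 0.0099% of the 10097 features did: the 1 feature called was Ucp1, the uncoupling protein of brown fat, lower in IUGR by a log2 difference of -6.88 ± 0.29 (adjusted p = 0.0393). At an unadjusted p under 0.05, 5 members were higher in IUGR (9.26%, against 2.55% of all features) and 1 was lower (1.85%, against 2.91%). Both IUGR pools lay above the control in 20 members (37%, against 32.1%) and below it in 16 (29.6%, against 31.3%). The differences between these shares were not tested, and the background was not matched for intensity. Every member was set against the same 1 control array.

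Cyp2j4 had the smallest p, with 9.41 and 9.40 in IUGR and 8.12 in the control, a difference of 1.29 ± 0.22 (adjusted p = 0.420). Cyp11a1 was 8.76 and 8.64 in IUGR and 7.62 in the control (1.08 ± 0.23, adjusted p = 0.579), and Cyp2d4, of the drug-oxidising Cyp2d subfamily, was 7.24 and 6.93 against 6.14 (0.94 ± 0.25, adjusted p = 0.777). In each of them the control lay far below both IUGR pools. Cyp4f5, also among the 5 higher genes, was 9.16 and 8.75 against 7.93, and Cyp2d5 was 6.17 and 5.66 against 4.82. Lower was Cyp11b2, the aldosterone synthase, with 3.87 and 3.94 against 4.52 (-0.62 ± 0.23, adjusted p = 0.876). The other epoxygenases Cyp2j3 (9.79 and 9.38 against 8.90) and Cyp2c23 (10.25 and 9.80 against 9.63) were higher in both IUGR pools without a p under 0.05.

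**Figure D5:**
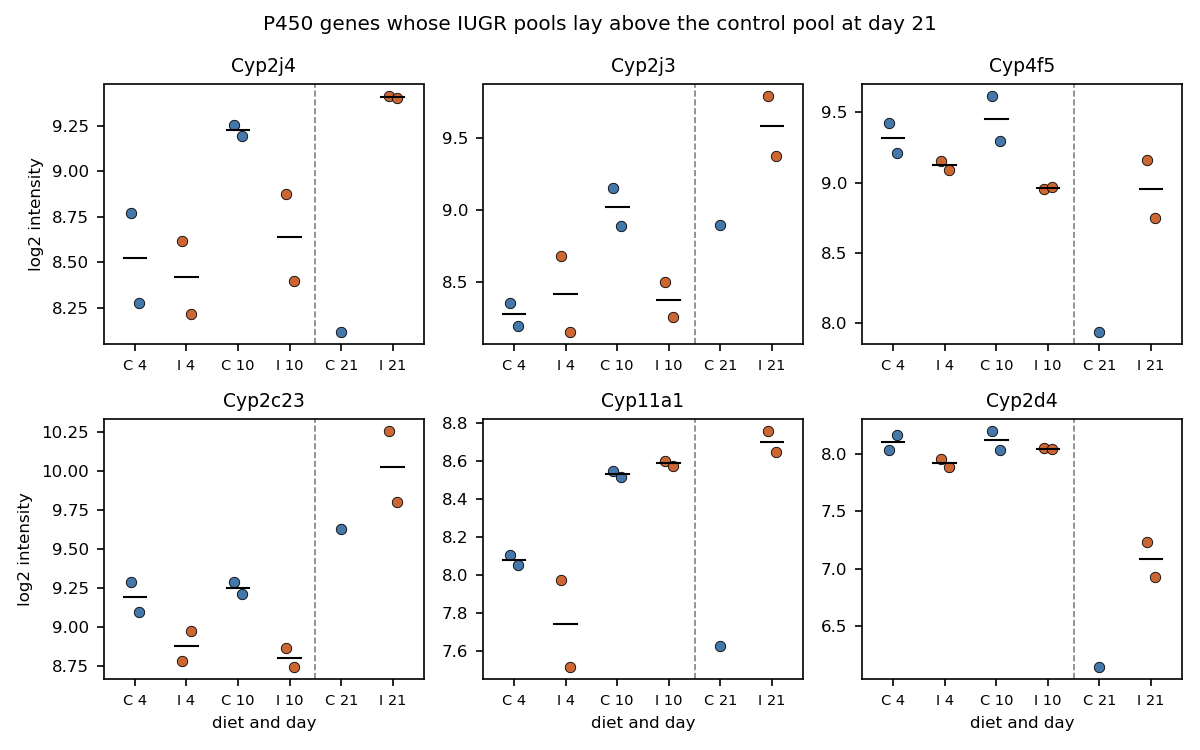
Log2 intensity (y axis, its own range in each panel) of 6 P450 genes in control (C, blue) and IUGR (I, orange) pools at days 4, 10 and 21, with the day 21 arrays, which were processed apart, right of the dashed line. Points are arrays and black lines are means of 2 arrays; at day 21 both IUGR pools lie above the 1 control pool in every panel.

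Among the brightest P450 genes of day 21, the diets differed by less than the SE. Cyp2e1 was 12.88 and 12.54 in IUGR and 12.75 in the control, Cyp4b1 12.34 and 12.25 against 12.24, and Cyp2b12 11.61 and 11.49 against 11.54. Their differences were -0.05 ± 0.26, 0.05 ± 0.23 and 0.01 ± 0.23. Ranked among the NM features of its own array, Cyp2e1 stood at percentiles 53.3 to 67.2 at days 4 and 10, against 89.9 to 91.9 at day 21. Cyp4b1 stood at 71.6 to 74.6 and 87.5 to 87.9, and Cyp2b12 at 38.8 to 64.8 and 81 to 81.4. Cyp26a1 was 5.69 and 5.24 in IUGR and 6.09 in the control at day 21, and Cyp26b1 6.89 and 7.09 against 7.51. These ranks and levels are set side by side only, since day 21 was processed apart.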

How the data were processed

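Members and gene lists were chosen with earlier results of these data known. The authors deposited intensity on a linear scale, 1 value per feature. RMA is the only step named, per the submitters' processing notes, without a version; probe design and background settings are not given in the sources used here. Symbols came from unversioned RefSeq accessions matched to the rat gene table of GRCr8: 9731 features matched 1 symbol each.

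Values were analysed as log2 intensity without further normalisation with limma (version 3.58.1, run in R version 4.3.3) through lmFit and eBayes, Benjamini-Hochberg adjusted over all features, threshold 0.05. One model held the 8 day 4 and day 10 arrays. A separate model held day 21, with the NM features of 3 arrays. The XM features of those arrays were left out, as they were uncorrelated with days 4 and 10 (r = 0.016 to 0.017). The reason for this was not tested. Errors are standard errors from the fit, and array precision is limited by the number of arrays.

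Named genes were those well above the median, those past the threshold and, per comparison, the 3 higher and 3 lower with the smallest unadjusted p under 0.05; other genes named were chosen after their values were seen. From the lists, at most 3 genes per list and comparison were named for their test; the club and adrenal genes given by array were picked after their values were seen. Likeness used Pearson's r over 8 arrays. The fit was tested on simulated data. Over all features, same-numbered arrays of different groups did not deviate together in every pair (r = -0.226 to 0.187), so numbers were taken as names only. Some members did split by number in all 4 groups of days 4 and 10. Replicate 2 was the higher array for Cyp2a3, Cyp2t1, Cyp24a1 and Cyp2d3. It was the lower one for Cyp2b12, Cyp11a1, Cyp4f4, Cyp2j4, Cyp2j3 and Cyp2c22. The share of all features that split by number in this way was not counted, and the split was not tested.

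One result of the gene lists is not reported here.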

Additional observations from a re-analysis of the deposited data

Results flagged for a closer look

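Some genes differed in opposite directions at different days. In IUGR minus control, Cyp4f5 was 1.02 at day 21, with both IUGR pools above the control pool, and both IUGR pools were below both control pools at days 4 and 10. Cyp2c23 showed the same opposition, with 0.398 at day 21 against negative values at days 4 and 10. Cyp2j4 (1.29) and Cyp2j3 (0.686) were higher at day 21 and lower at day 10. Cyp11a1 (1.08) and Cyp2d4 (0.941) were higher at day 21 and lower at day 4. Cyp2d2 was -0.475 at day 21 and higher in IUGR at days 4 and 10. Groups without overlap were common over all features tested. At day 21, 32.1% had IUGR above control and 31.3% below. At day 10 these shares were 19.9% and 23.6%, and at day 4 they were 18.3% and 19.1%. The share of features with opposite directions was not counted. These differences between days were not tested: day 21 was processed apart and has 1 control pool.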

How the results depend on the processing

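Over 48 pairs of a named gene and a comparison, 643 values were recomputed. Of these, 558 counted as unchanged, 52 lost a call, 13 gained one and 20 changed sign. A tested value counted as unchanged if it kept direction and side of the threshold. Only pairs called in the reported fit could lose a call. Most of the 48 were not called, so the 52 losses are not to be read against 643. Leaving out either IUGR array of day 21 gave 4 values each without a test. These counted as unchanged by a limit, the SD of both IUGR arrays of that day, that they could not exceed. The 20 sign changes were small differences that never passed, 1 of them (Cyp2d4) large in the reported fit. In the averaged diet difference they were Cyp20a1 -0.00401 without IUGR day 10 replicate 1, Cyp4b1 -0.0232 to -0.0085 without 1 of 3 arrays (-0.0107 for IUGR day 10 replicate 2) and -0.0624 without both IUGR arrays rich in heart and brown fat markers, and Cyp4f6 0.00191, 0.0307 and 0.0771 without 1 of 3 arrays and 0.000222 without those 2. In the averaged age difference they were Cyp4b1 0.0348 (quantile normalisation), 0.00473 (median centring), 0.00951 (those 2 arrays left out) and 0.0487, 0.0136, 0.0361 and 0.0339 without 1 of 4 arrays, and Cyp4f6 -0.0254, -0.0542 and -0.101. With 1 array left out, the averaged diet differences ran from -0.00401 to 0.0809 (Cyp20a1), -0.0232 to 0.0802 (Cyp4b1) and -0.203 to 0.0771 (Cyp4f6), and the averaged age differences from -0.0548 to 0.0487 (Cyp4b1) and -0.101 to 0.179 (Cyp4f6). Cyp2d4 at day 21 became -0.138 in the table as filed, which adds control replicate 2, the array left out elsewhere. That array read 8.30 and control replicate 1 read 6.14, against 7.24 and 6.93 in IUGR. Why that array differs was not tested.

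The count of members past the threshold with 1 array left out was 0 to 3 for diet at day 4, 0 to 0 at day 10, 0 to 1 averaged, 0 to 2 for the difference between days, 0 to 5 for age in controls, 1 to 7 in IUGR and 3 to 11 averaged; in these fits a lone array is assumed to vary like the other groups. Age in controls (2) gave 1 with an intensity trend and 6 without those same 2 IUGR arrays, which are not control arrays but enter the estimate of the spread; age in IUGR (4) gave 7 there. With a replicate block the counts were 0 for every diet comparison, 3 for age in controls, where Cyp2j4 (adjusted p = 0.0449) and Cyp2j3 (0.0285) passed, 3 in IUGR and 8 averaged, where both passed too (0.0187 and 0.0255); the numbers do not pair the arrays. No paired analysis was possible at day 21, because 1 control array was used, and leaving out an IUGR array there gives a value without a test. Taking each gene's lowest array, 2 members were well above the median in place of 5; on day 21 arrays 10 were. Removing the dimmest 30% left 18 members at days 4 and 10 and 20 at day 21, and Cyp4f1 and Cyp3a9 were among the members removed.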
